A study of Mus musculus with 2 samples.

Results

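The mouse mitochondrial genome carries 37 genes, and all 37 were found in the gene tables of 2 total RNA libraries from mouse erythroblasts. They were chosen by position alone, as the genes that the GENCODE annotation places on chromosome M, and they are 37 of 69691 listed features and of 43346 Ensembl genes. There are 13 mRNA genes, 2 ribosomal RNA genes and 22 transfer RNA genes, with 28 genes on the plus strand of the reference and 9 on the minus strand. The minus strand genes are mt-Nd6 and 8 tRNA genes. The erythroblasts, nucleated precursors of red blood cells, were taken as primary cells from male mice of the C57BL/6J strain at an age of 5 to 6 weeks, from bone marrow according to the title of the isolation protocol. There is 1 group, untreated as far as the labels say and with no mutant allele named, and it has 2 biological replicates. Both carry the same donor record, so part of their spread may be technical. Each library was made with a ScriptSeq kit from 100 ng of RNA depleted of ribosomal RNA.

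Mitochondrial DNA is read from both strands as long transcripts that cover many genes at once, and enzymes free most mRNAs and rRNAs by cutting out the tRNAs that lie between them. The mRNAs encode core subunits of complexes I, III, IV and V of oxidative phosphorylation, and all other proteins of the organelle are made from nuclear genes. Red cell precursors use mitochondria for heme synthesis and clear them as they mature. Pieces of mitochondrial DNA also lie in nuclear chromosomes, where the annotation lists some as pseudogenes.

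The libraries held 37312624 counts in replicate 1 and 22464724 in replicate 2 over Ensembl genes, so a count of 0 allows up to 0.0804 and 0.134 CPM, counts scaled to 1000000 per library. All 11 erythroid marker genes looked up, the adult globins among them, reached 1 coding-scaled TPM in both libraries. Coding-scaled TPM is the deposited TPM, a share of transcripts corrected for length, multiplied by 1 factor per library that brings the sum over 21461 nuclear protein-coding genes to 1000000. That factor was 8.89 in replicate 1 and 14.5 in replicate 2, so most deposited TPM lay outside these genes. The erythroid markers summed to 403639 and 345734 coding-scaled TPM in replicates 1 and 2. All 8 neutrophil markers also reached 1, with sums of 19790 and 19435, as did all 6 macrophage markers, with sums of 163 and 169. Of 5 megakaryocyte markers 3 reached 1 (sums of 115 and 138), of 3 T cell markers 1 did (7.11 and 2.61) with Cd8a listed at 0, and none of 3 B cell markers did (1.07 and 0.435). The part of these other cells in the mitochondrial values was not tested, and in bulk RNA fewer cells of a type and less RNA per cell cannot be told apart.

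The sequences below, from GENCODE M21 transcripts on GRCm38, show where the mitochondrial genes can and cannot be told from each other and from their nuclear copies. A search of the annotated nuclear transcripts, at 90% identity or more over at least 100 bases, found 17 copies of mitochondrial genes, and 15 of them are in the tables. Of these, 7 lie in the same order as the mitochondrial genes within 4663 bases of chromosome 1 (24611535 to 24616197, minus strand), and 5 matched their mitochondrial gene over the whole copy without a mismatch or gap. The nearly identical copies come first, aligned at the start of the copy and with differing bases in capitals. The copy Gm29216 begins inside mt-Co1, the gene for the catalytic subunit of complex IV, and differs from it at 6 of 492 bases. Counted from 1 at the 5′ end of mt-Co1, with the mitochondrial base first, these are T1056A, C1057T, A1059G, A1060G, C1062A and A1066T, all in the first 13 bases of the copy. The copy Gm28438 differs from mt-Nd3, a complex I gene, at 1 of 345 bases, T3C.
mt-Co1 positions 1054 to 1093 (chrM:6381-6420, plus strand): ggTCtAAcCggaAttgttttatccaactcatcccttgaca
Gm29216 positions 1 to 40 (chr1:24616158-24616197, minus strand): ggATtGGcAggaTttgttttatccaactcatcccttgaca
mt-Nd3 positions 1 to 30 (chrM:9459-9488, plus strand): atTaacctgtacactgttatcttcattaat
Gm28438 positions 1 to 30 (chr1:24613090-24613119, minus strand): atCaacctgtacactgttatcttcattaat

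The chromosome 1 copies of mt-Co2 and mt-Co3, genes for the other mitochondrial subunits of complex IV, are identical to them and differ only by ending earlier. The capitals mark the last bases of the mitochondrial gene that the copy lacks. For mt-Co2 these are the stop codon, and for mt-Co3 the single T that stands beyond the last whole codon. Of the 13 mRNA genes, 3 (mt-Co3, mt-Nd4 and mt-Cytb) end in such a T, whose stop codon is known to be completed by the poly(A) tail, and the other 10 consist of whole codons.
mt-Co2 positions 655 to 684 (chrM:7667-7696, plus strand): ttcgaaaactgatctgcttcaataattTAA
Gm28661 positions 655 to 681 (chr1:24614885-24614911, minus strand): ttcgaaaactgatctgcttcaataatt
mt-Co3 positions 755 to 784 (chrM:9361-9390, plus strand): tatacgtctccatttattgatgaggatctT
Gm28437 positions 755 to 783 (chr1:24613189-24613217, minus strand): tatacgtctccatttattgatgaggatct

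Mitochondrial genes also share bases with each other, and 9 of the 36 neighbouring gene pairs overlap. The ends of mt-Atp8 and mt-Nd4l are shown because they hold the start codon of the next gene, in capitals. The last 43 bases of mt-Atp8 are the first of mt-Atp6, both genes of complex V, and the last 7 of mt-Nd4l are the first of mt-Nd4, both of complex I. The ends of mt-Nd5 and mt-Nd6, complex I genes on opposite strands, are shown because they overlap by 14 bases (13552 to 13565, in capitals). Whether the authors' counting used strand is not given in the sources used here, although their records list signal tracks for each strand. Unless it did, reads from either strand over mt-Nd6 cannot be told apart.
mt-Atp8 positions 162 to 204 (chrM:7927-7969, plus strand): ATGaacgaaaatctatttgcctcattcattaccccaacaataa
mt-Nd4l positions 255 to 297 (chrM:10131-10173, plus strand): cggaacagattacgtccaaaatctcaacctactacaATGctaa
mt-Nd5 positions 1795 to 1824 (chrM:13536-13565, plus strand): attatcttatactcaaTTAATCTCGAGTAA
mt-Nd6 positions 490 to 519 (chrM:13552-13581, minus strand): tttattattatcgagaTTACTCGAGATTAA

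The strand of mt-Nd6 is visible in its base composition. Its mRNA is 28.1% G and 5.97% C, whereas the 12 plus strand mRNAs lie between 5.88% and 16.1% G and between 22.1% and 29.97% C.

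All 22 tRNA genes were listed at 0 counts and a TPM of 0 in both libraries, with an effective length of 0. The effective length is the number of positions at which a sequenced fragment can start within a gene, and it was 190 bases below the annotated length of mt-Co1 in replicate 1 and 152 bases below it in replicate 2. Among all features, every listed length that gave an effective length of 0 was at most 112 bases in replicate 1 and 91 bases in replicate 2. The mitochondrial tRNA genes are 59 to 75 bases long, so the tables cannot register them and say nothing of their level. The shortest, the serine tRNA gene mt-Ts2, and the longest, the leucine tRNA gene mt-Tl1, are printed whole to show that both lie under these lengths.
mt-Ts2 (chrM:11613-11671, plus strand): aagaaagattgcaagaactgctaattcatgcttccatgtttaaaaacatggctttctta
mt-Tl1 (chrM:2676-2750, plus strand): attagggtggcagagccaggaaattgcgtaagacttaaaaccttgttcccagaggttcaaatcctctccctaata

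The remaining 15 members, the mRNAs and rRNAs, held 16.3% of all counts in replicate 1 (exact Clopper-Pearson 95% interval 16.29% to 16.31%) and 12.5% in replicate 2 (12.48% to 12.51%). Such intervals cover counting error only, since the libraries have no molecular identifiers. The mean was 14.4% ± 2.69 (SD, n = 2). Relative to the counts of nuclear protein-coding genes, the members stood at 28.2% and 23.8%, with a mean of 26.0% ± 3.10. Their share of deposited TPM was lower, at 4.87% and 2.35%, but most of that TPM lay outside both the members and the nuclear protein-coding genes.

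The copies of mitochondrial genes held a further 1606760 counts in replicate 1 and 673132 in replicate 2, which is 4.31% and 2.996% of all counts. The 7 copies on chromosome 1 held 99.98% and 99.93% of them, and the 8 copies elsewhere held 336 and 460 counts. Gm28437, the copy of mt-Co3, had 651514 and 264132 counts, against 79500 and 58661 for mt-Co3 itself. Gm28661 had 461269 and 161992, against 12825 and 12701 for mt-Co2. Gm10925 had 270364 and 71048, against 46998 and 31147 for mt-Atp6, the gene for the subunit of complex V that forms its proton channel. For these 3 genes the copy held most counts in both libraries.

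Gm29216 had 186534 and 171719 counts, against 4402373 and 1273783 for mt-Co1, so mt-Co1 itself held most of its counts. Gm28438 had 27597 and 1615 counts, against 7443 and 10355 for mt-Nd3, and the larger holder was therefore the copy in replicate 1 and the mitochondrial gene in replicate 2. Gm10222, without a mismatch to mt-Nd4l, had 9131 and 2166 counts, against 0 and 97.1 for mt-Nd4l. Gm28439 matched 876 of the 1378 bases of mt-Nd4 without a mismatch and had 14.4 and 0 counts, against 80210 and 22760 for mt-Nd4. A copy without mismatches thus held nearly all counts of mt-Nd4l and nearly none of mt-Nd4. None of the 15 copies with values was assigned to mt-Nd1, to mt-Atp8 or to either rRNA. The stretch of chromosome 1 between the copies of mt-Atp6 and mt-Co2, where a copy of mt-Atp8 would lie by gene order, holds none of these copies and was not examined. It is not known here whether mt-Atp8 shares reads with it. The copies of mt-Nd5, mt-Nd6 and mt-Cytb had 0 counts in replicate 1 and no more than 1 in replicate 2.

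The authors deposited a further estimate of the same counts, the posterior mean, with its standard deviation, and the division between gene and copy differed between the estimates. Of the counts of mt-Co2 and its copies, mt-Co2 held 2.70% and 7.27% by expected count in replicates 1 and 2, and 24.1% and 39.1% by posterior mean. For mt-Atp6 the shares were 14.8% and 30.5% by expected count and 48.5% and 46.0% by posterior mean. For mt-Co3 they were 10.9% and 18.2%, and 32.3% and 35.3%. The posterior standard deviation for mt-Co2 was 92376 and 41950 counts, several times its expected count in both libraries. The deposited TPM of mt-Co2, 192 and 212, lies below the authors' own credibility interval for it, which runs over 370 to 4564 in replicate 1 and 329 to 2296 in replicate 2.

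The estimates lay closer together for mt-Co1 and mt-Nd3, whose chromosome 1 copies differ from them in sequence. They were also close for mt-Nd4 and mt-Nd4l, whose copies had no mismatch. For mt-Nd4l the share was 0% and 4.29% by expected count, and 0.385% and 5.74% by posterior mean. For mt-Co1 the share was 95.9% and 88.1% by both estimates, with posterior standard deviations of 846 and 464 counts. For mt-Nd3 it was 21.2% in replicate 1 by both estimates, and 86.5% by expected count and 81.9% by posterior mean in replicate 2. The sum over a gene and its copies was the same by expected count and posterior mean for every mRNA. That sum is used below beside the deposited value and is written as the gene with its copies. It assigns all reads of the copies to the mitochondrial gene, whereas the tables do not show which locus made them.

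**Figure D1:**
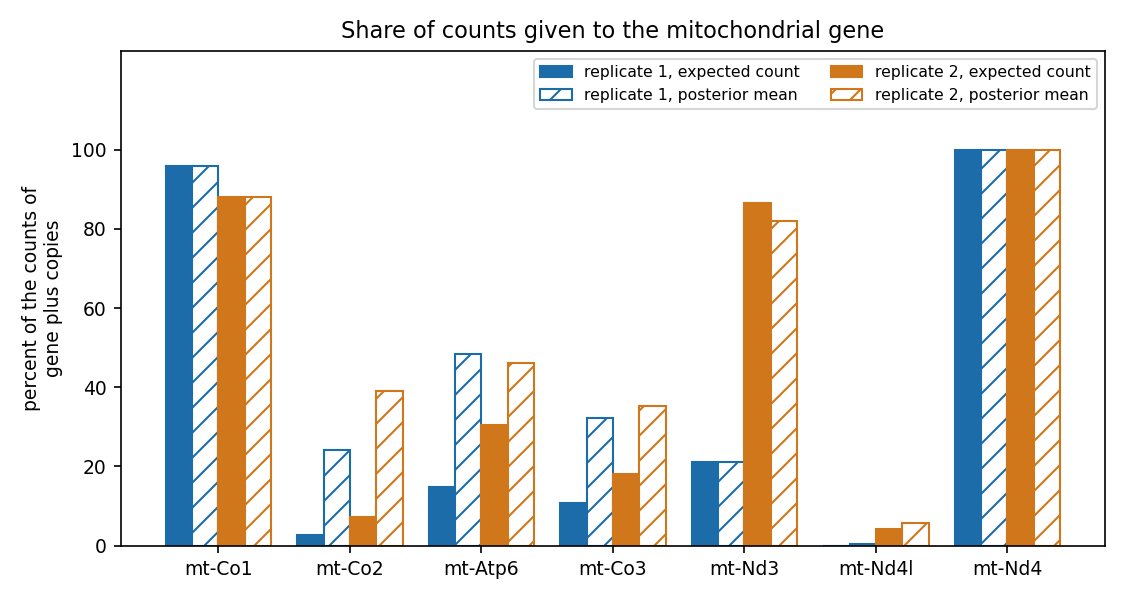
Percent of the counts of a mitochondrial gene and its nuclear copies that each table gives to the mitochondrial gene, for the 7 genes with a copy on chromosome 1, in replicates 1 and 2 (1 bar per library; filled bars for the expected count, hatched bars for the posterior mean; no error bars). The mt-Co1 and mt-Nd4 bars stand between 88.1% and 100%, the mt-Co2 bars between 2.70% and 39.1%, and the mt-Nd3 bars at 21.2% in replicate 1 and over 80% in replicate 2.

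With copies, the members held 20.6% of all counts in replicate 1 and 15.5% in replicate 2 (mean 18.05% ± 3.62, SD, n = 2). The mRNAs alone held 17.5% and 9.77%, and the rRNAs, to which no copy with values was assigned, 3.09% and 5.72%. The mRNA share was therefore higher in replicate 1 and the rRNA share higher in replicate 2.

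Levels of the 13 mRNAs spanned a wide range, and with copies every complex IV and V gene stood above every complex I and III gene in both libraries. With copies, mt-Co1 had a level of 222745 in replicate 1 and 133921 in replicate 2 on the coding-scaled TPM scale (mean 178333 ± 62808, SD, n = 2). The other complex IV genes followed at 80936 and 65885 for mt-Co3 (73411 ± 10643), and at 63128 and 42371 for mt-Co2 (52749 ± 14678). As deposited, without copies, mt-Co3 stood at 8802 and 11974 and mt-Co2 at 1707 and 3080 coding-scaled TPM. Replicate 1 was the higher library for these 3 genes with copies, and for mt-Co2 and mt-Co3 the lower library as deposited.

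The complex V gene mt-Atp8 stood at 121177 and 56811 coding-scaled TPM, with a mean of 88994 ± 45513. It is 204 bases long, and its effective length was 34.7 bases in replicate 1 and 63.0 in replicate 2, so its level rests on the fragment lengths assumed. By annotated length in place of effective length it stood below mt-Co1, mt-Co3, mt-Co2 and mt-Atp6 in both libraries, with 314 counts per base in replicate 1 against 466 for mt-Atp6 with copies. The level of mt-Atp6 with copies was 42508 and 24919 coding-scaled TPM (33713 ± 12438), and 6295 and 7595 as deposited.

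Complex I has 7 mitochondrial genes, all of them membrane subunits, and their mean levels with copies lay between 821 and 11136 coding-scaled TPM. The highest was mt-Nd3, with 14448 and 7825 in replicates 1 and 2, and mt-Nd1 followed with 9143 and 5337. Next came mt-Nd4l with 5405 and 1975, and mt-Nd4, which shares its transcript, with 4441 and 2395. The genes mt-Nd3 and mt-Nd4l are short, at 348 and 297 bases, so their places in this order rest on effective length. By annotated length mt-Nd3 stood below mt-Nd1, and mt-Nd4l below mt-Nd4, in both libraries. The level of mt-Nd5 was 2043 and 1224, and that of mt-Nd2 1305 and 838. For these 6 genes replicate 1 was the higher library. The minus strand gene mt-Nd6 had 446 and 1197, and replicate 2 was the higher. The complex III gene mt-Cytb, for cytochrome b, had 4183 and 3477 coding-scaled TPM.

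The order of the mRNAs by level with copies held across the libraries for 7 genes: mt-Co1 highest, mt-Co2 to mt-Nd1 at ranks 4 to 7 with mt-Atp6 and mt-Nd3 between them, mt-Nd4 at rank 9 and mt-Nd5 at rank 11. The remaining genes exchanged places with a near neighbour: mt-Atp8 with mt-Co3, mt-Nd4l (ranks 8 and 10) with mt-Cytb (10 and 8), and mt-Nd2 with mt-Nd6. Of the 12 neighbouring pairs in the order of mean level, 5 had ranges over the 2 libraries that did not overlap: mt-Co1 over mt-Atp8, mt-Co3 over mt-Co2, mt-Atp6 over mt-Nd3, mt-Nd1 over mt-Cytb, and mt-Nd4 over mt-Nd5. The ranges of the other 7 pairs overlapped. Of these, mt-Co2 stood above mt-Atp6, mt-Nd3 above mt-Nd1 and mt-Nd5 above mt-Nd2 within each library. By annotated length, however, mt-Nd1 stood above mt-Nd3. The remaining pairs changed order between the libraries, so their order is not separated by them. Among these pairs, mt-Nd4l stood below both mt-Cytb and mt-Nd4 in each library by annotated length. As deposited, mt-Co2 ranked 9 and mt-Nd4l 13 by mean level, against 4 and 9 with copies.

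**Figure D2:**
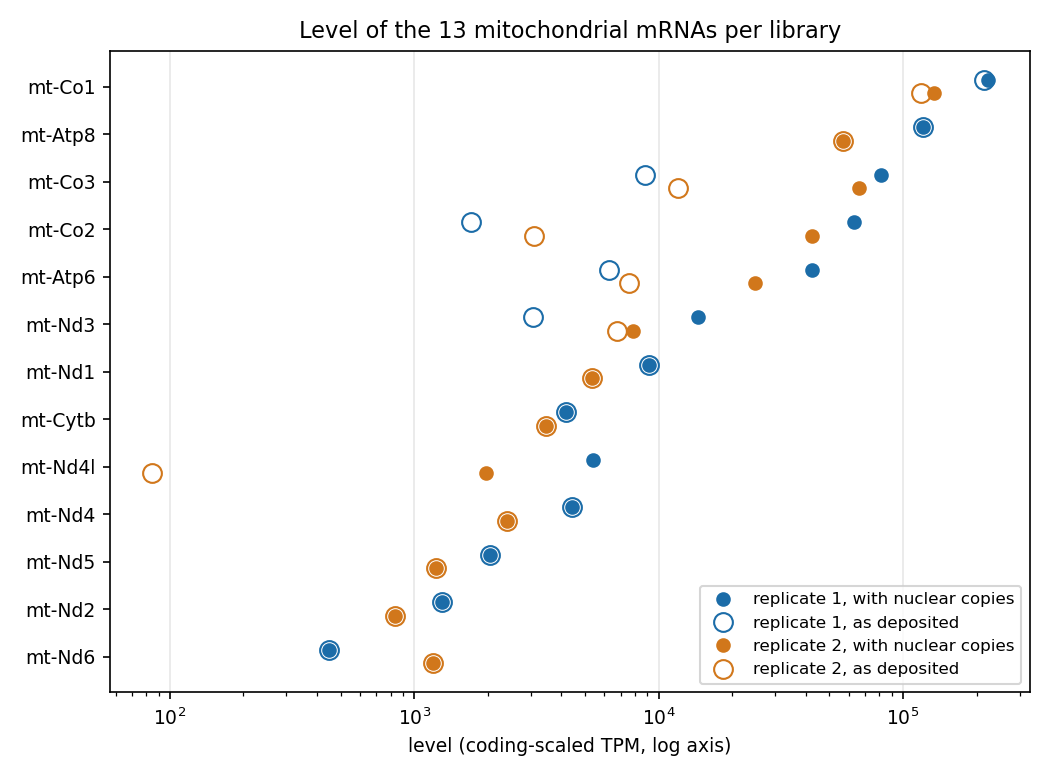
Level of each of the 13 mitochondrial mRNAs in coding-scaled TPM on a log axis, with 1 point per library (replicates 1 and 2) and no error bars; filled points add the nuclear copies and open rings are as deposited. With copies mt-Co1 stands at 222745 and 133921, while the open rings of mt-Co2, mt-Co3 and mt-Atp6 lie far to the left of their filled points; the ring of mt-Nd4l in replicate 1 is at 0 and off the axis.

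Against single nuclear genes the mRNAs were high. Where copies were added, this was done for the mitochondrial genes only, while each globin gene, for example, stood alone. By mean level over the 2 libraries, of 12895 nuclear protein-coding genes with a TPM above 0, only Hba-a2, an alpha globin gene (259461 ± 33401 coding-scaled TPM, SD, n = 2), exceeded mt-Co1, mt-Atp8, mt-Co3 and mt-Co2 with copies. In replicate 2 alone 2 nuclear genes exceeded mt-Co2. For mt-Atp6 with copies 3 nuclear genes were higher by mean level, 1 in replicate 1 and 3 in replicate 2, and for mt-Nd1 7 were higher by mean level, 4 in replicate 1 and 11 in replicate 2. As many as 138 exceeded mt-Nd6 by mean level, 262 in replicate 1 and 88 in replicate 2. As deposited, by mean level, 22 nuclear genes exceeded mt-Co2 and 2113 exceeded mt-Nd4l.

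Complex IV genes held most mRNA counts. With copies their share was 88.6% in replicate 1 and 88.5% in replicate 2, complex V held 5.83% and 5.92%, complex I 4.60% and 4.34%, and complex III 0.928% and 1.22%. As deposited the shares were 91.2% and 88.4% for complex IV, 2.25% and 3.87% for complex V, 5.36% and 6.01% for complex I, and 1.23% and 1.76% for complex III. Corrected for length, by TPM with copies, complex IV held 64.1% and 69.6%, complex V 28.6% and 23.5%, complex I 6.51% and 5.97%, and complex III 0.731% and 0.999%. Most of the complex V value came from mt-Atp8 and its short effective length. By annotated length the coding-scaled level of mt-Atp8 was 20630 and 17556, in place of 121177 and 56811. Of all mRNA counts, mt-Co1 held 70.2% and 65.9% with copies, and 56.8% and 53.9% by deposited TPM. The ratio of mt-Co1 to mt-Nd1, by TPM as deposited, was 23.4 in replicate 1 and 22.1 in replicate 2, although the level of each gene differed between the libraries.

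The 2 rRNAs differed from each other and between libraries. The RNA of the large subunit of the mitochondrial ribosome, mt-Rnr2 (1094 to 2675), had 1110449 and 1199782 counts in replicates 1 and 2, and that of the small subunit, mt-Rnr1 (70 to 1024), had 41961 and 84145. Per length, mt-Rnr2 stood at 14.5 and 8.01 times the TPM of mt-Rnr1. In coding-scaled TPM, mt-Rnr2 was at 52466 and 108252, and mt-Rnr1 at 3607 and 13519, so replicate 2 was higher for both. The ratio of rRNA to mRNA counts with copies was 0.176 in replicate 1 and 0.585 in replicate 2, and 0.234 and 0.843 as deposited. The RNA had been depleted of ribosomal RNA. How far the depletion took mitochondrial rRNA was not tested, and these ratios do not give the ratio in the cells.

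Between the libraries, the plus strand mRNAs and the other long members lay on opposite sides. Ratios put replicate 2 over replicate 1 and are on the log2 scale, from rounded expected counts scaled with TMM, edgeR's trimmed mean of M values, and 1 library stands on each side, so there is no test. With copies, all 12 plus strand mRNAs were lower in replicate 2, from −1.13 for mt-Nd4l to −0.30 for mt-Co3, with a median of −0.71. The median over all 8199 genes that averaged at least 100 counts and had counts in both libraries was −0.03, and over 7657 nuclear protein-coding genes −0.04. In contrast, mt-Rnr1 stood at 1.88 (exact Clopper-Pearson 95% interval of counting error 1.87 to 1.90), mt-Nd6 at 1.49 (1.41 to 1.57) and mt-Rnr2 at 0.99. The single minus strand mRNA was thus on the side of the rRNAs, with 2232 counts in replicate 1 and 3406 in the shallower replicate 2.

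As deposited, the pattern was mixed, with 5 mRNAs higher in replicate 2 and 7 lower among the 12 that averaged at least 100 counts. The ratio of mt-Nd3 was 1.35 as deposited and −0.67 with copies (−0.70 to −0.64). It was 0.86 and −0.56 for mt-Co2, 0.44 and −0.30 for mt-Co3, and 0.28 and −0.76 for mt-Atp6. Each of these 4 changed direction when the copies were added. For mt-Co1 it was −0.91 and −0.79. Of the plus strand mRNAs with at most 1 count in copies, all 4 were lower in replicate 2, with mt-Nd1 and mt-Nd5 at −0.80, mt-Atp8 at −0.33 and mt-Cytb at −0.30, and mt-Nd4, with 14.4 and 0 counts in its copy, at −0.94.

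At a limit of 2-fold, 3 of 14 members were apart as deposited, mt-Rnr1, mt-Nd6 and mt-Nd3, all higher in replicate 2. The share over all 8204 genes that averaged at least 100 counts was 10.5%, made up of 4.71% with the higher value in replicate 2 and 5.80% with the higher value in replicate 1. With copies, 2 of 15 members were at least 2-fold higher in replicate 2, mt-Rnr1 and mt-Nd6, and 1 was at least 2-fold lower, mt-Nd4l. The counts are small, and with 1 library on each side they describe these libraries alone.

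The directions held under 4 other scalings: DESeq2 size factors, library totals, TMM without the mitochondrial genes, and the ratio of TPM. Under each, all 12 plus strand mRNAs with copies were lower in replicate 2 while mt-Nd6 and both rRNAs were higher. All but the ratio of TPM shift every log2 ratio by the same amount, 0.007, −0.146 and −0.0004 in that order. These shifts are too small to change a sign here, so only the ratio of TPM could have done so. By the ratio of TPM the median of all genes moved to −0.67, that of the plus strand mRNAs to −1.46, mt-Nd6 to 0.72, mt-Rnr1 to 1.20 and mt-Rnr2 to 0.34. Of the genes at least 2-fold apart, 44.8% were higher in replicate 2 with TMM, 30.4% by library total and 4.76% by ratio of TPM. The size range in the labels also differed between the libraries, 200 to 764 for replicate 1 and 138 to 1000 for replicate 2, with no unit given. Its part in these ratios was not tested.

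**Figure D3:**
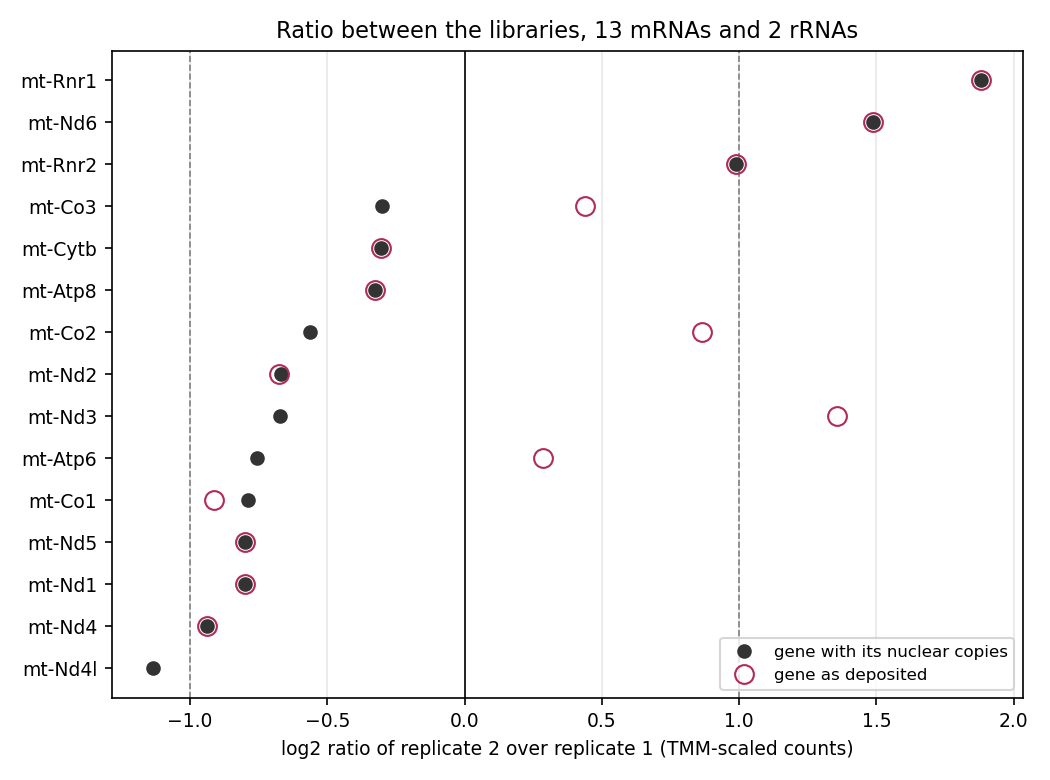
Log2 ratio of replicate 2 over replicate 1 in TMM-scaled counts for the 13 mRNAs and 2 rRNAs (1 library on each side, no error bars); filled points are genes with their nuclear copies, open rings are as deposited, and dashed lines mark 2-fold. The 12 plus strand mRNAs lie between −1.13 and −0.30 with copies, mt-Rnr1, mt-Nd6 and mt-Rnr2 lie between 0.99 and 1.88, and the rings of mt-Co3, mt-Co2, mt-Nd3 and mt-Atp6 lie right of 0; mt-Nd4l has no ring because its deposited mean count was under 100.

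The minus strand share of mitochondrial counts, which comes from mt-Nd6 alone since the tRNAs were at 0, was 0.0367% in replicate 1 and 0.121% in replicate 2. Set against its overlapping neighbour on the other strand, mt-Nd6 had 0.218 of the TPM of mt-Nd5 in replicate 1 and 0.978 in replicate 2. The level of mt-Nd5 was higher in replicate 1, and that of mt-Nd6 in replicate 2.

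The complexes are built from mitochondrial and nuclear subunits, and by mean level with copies the mitochondrial genes stood above all nuclear genes listed for the same complex. In complex IV the 3 mitochondrial genes had mean levels of 52749 to 178333 coding-scaled TPM, against 26.2 to 225 for 10 nuclear genes, with Cox6c the highest of these. In complex I the 7 mitochondrial genes lay between 821 and 11136, against 6.64 to 64.8 for 7 nuclear core genes, led by Ndufv1. In complex III mt-Cytb was at 3830 ± 499 (SD, n = 2), against 12.6 to 224 for 9 nuclear genes, with Uqcrh the highest. In complex V the 2 mitochondrial genes lay at 33713 and 88994, against 11.9 to 2626 for 16 nuclear genes. The highest of those was Atpif1, which encodes an inhibitor of the complex. As deposited, mt-Nd4l, at 42.4, lay within the range of the nuclear complex I genes. All 4 genes of complex II are nuclear, and they lay between 15.2 and 52.6.

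**Figure D4:**
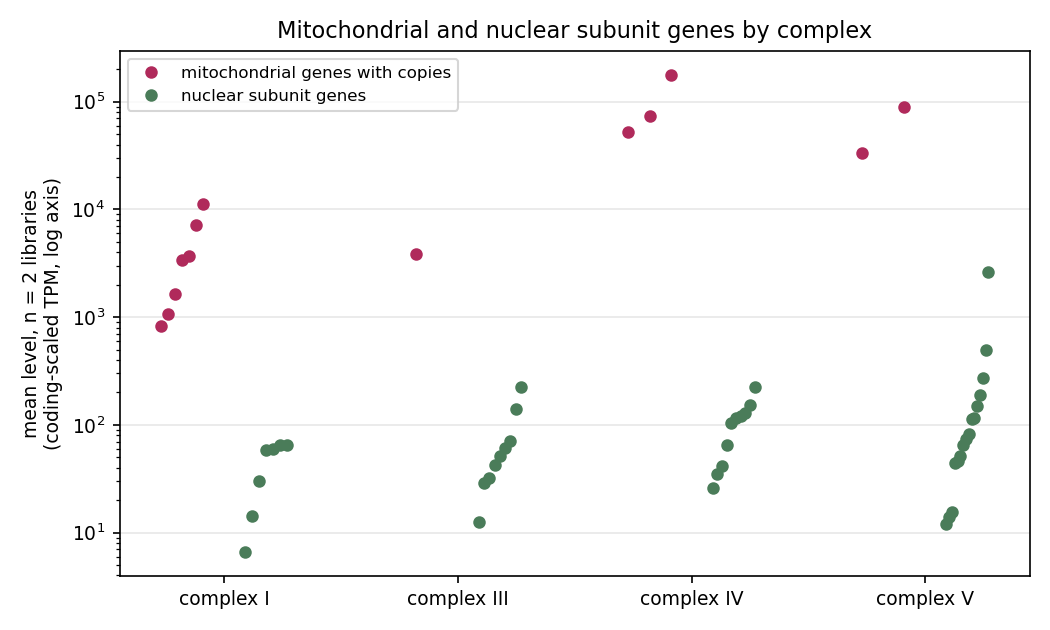
Mean level (coding-scaled TPM, log axis, n = 2 libraries, no error bars) of mitochondrial subunit genes with their copies, drawn left, for complexes I, III, IV and V. The nuclear genes listed for the same complex are drawn right and include the inhibitor gene Atpif1 in complex V. Each point is 1 gene. The lowest mitochondrial gene, at 821 in complex I, stands above the 7 nuclear core genes drawn for its own complex, and of all nuclear genes drawn Atpif1, at 2626, is the highest.

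Pooled over complexes, the nuclear oxidative phosphorylation genes had a median ratio on the other side of 0 from that of the plus strand mRNAs. The medians of the nuclear complex I and III genes did not. Of the 46 nuclear genes, 40 averaged at least 100 counts, and their median log2 ratio was 0.22, with 17 lower in replicate 2, 5 at least 2-fold higher and 2 at least 2-fold lower, beside 4.71% higher and 5.80% lower over all genes. By complex, the nuclear medians were −0.23 for complex I core genes (5 genes) and −0.10 for complex III (7 genes). They were 0.73 for complex II (4 genes), 0.33 for complex IV (10 genes) and 0.10 for complex V (14 genes). The median of the 12 plus strand mRNAs with copies was −0.71. No test of this difference was made, since each side is 1 library.

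Genes that make and keep mitochondrial RNA had levels near the middle of the nuclear protein-coding genes. Of the 67 genes with values in 5 lists covering transcription, processing, stability, replication and translation, 60 reached 1 coding-scaled TPM in both libraries, and the median of the 67 was 7.82 in replicate 1 and 8.56 in replicate 2. The nuclear protein-coding genes with a TPM above 0 had medians of 8.62 and 8.27. Of the 43 that averaged at least 100 counts, 27 were lower in replicate 2, 1 was at least 2-fold higher and 6 at least 2-fold lower, with a median log2 ratio of −0.19. Of all genes, 4.71% were 2-fold higher and 5.80% 2-fold lower, and 4335 of 8199 were lower. Among the 11 transcription genes, Tfam, which packages mitochondrial DNA and starts its transcription, was the highest with 49.5 and 17.98 coding-scaled TPM. Mterf3 followed with 20.6 and 14.9 and Mrpl12, a protein of the mitochondrial ribosome, with 16.4 and 12.8. The lowest was Mterf2, with 0.178 in replicate 1 and 0 in replicate 2. Polrmt, the mitochondrial RNA polymerase, was named after its values were seen, and it had 5.33 and 1.16. Replicate 1 was the higher library for each of these genes by this level, but the counts of Tfam, 414 and 227, gave a log2 ratio of 0.01.

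Of the 13 genes with values for cutting and modifying RNA at tRNA junctions, all 13 reached 1 coding-scaled TPM. Trnt1, which adds the CCA end to tRNAs, was the highest with 43.5 and 31.6, before, by mean level, Mto1, a tRNA modifying enzyme, with 7.38 and 22.9, and Hsd17b10, a subunit of the enzyme that cuts the 5′ end of tRNAs, with 7.38 and 14.2. The lowest by mean was Trit1, with 2.22 and 3.48. Of 14 stability and decay genes 13 reached 1. Lrpprc, which binds and stabilises mitochondrial mRNAs, had 78.6 and 123, Rexo2 36.4 and 23.9, Grsf1, an RNA binding protein of mitochondrial RNA granules, 32.8 and 18.3, and Fastkd1, the lowest by mean, 2.04 and 1.31. By this level, Mto1, Hsd17b10, Trit1 and Lrpprc were higher in replicate 2 and the other named genes in replicate 1. The counts of Trnt1, 660 and 498, however, gave a log2 ratio of 0.47, with replicate 2 higher.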

How the data were processed

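Total RNA of 2 libraries was measured. The labels give mm10 as the assembly, and GENCODE M4 is named in the deposited records. The aligner and quantifier were not given in the sources used here. For each library the authors deposited, per the file headers, expected counts (estimated counts, not always whole), posterior mean counts with a standard deviation, and TPM. Effective lengths and TPM intervals were also the authors' deposited columns. Members, symbols and coordinates came from GENCODE M21 (GRCm38): 42462 Ensembl genes matched by identifier, and the length of all 37 members was the same.

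Left out were 8 and 28 counts in features that are no Ensembl gene. Copies were searched with BLAST+ 2.17.0 in annotated nuclear transcripts, since no genome sequence was used here, and not on whole chromosomes as first planned. Their counts were added to the mitochondrial gene and divided by its effective length. Expected counts were rounded and scaled with TMM factors (1.05 and 0.951) in edgeR 4.0.16 and R 4.3.3, with DESeq2 1.42.0 size factors as an alternative. Genes needed a mean count of at least 100, and a ratio of at least 2-fold was counted. The ratio code was tested on simulated data. Other values came from Python 3.11.15 with numpy 2.4.6, pandas 2.3.3 and scipy 1.17.1, and plots from matplotlib 3.10.9.

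The members and the gene lists (mitochondrial DNA transcription, RNA processing, RNA stability, replication, translation, complexes I to V, mitophagy, and cell type markers) were chosen with earlier results of these data known. All 37 members could be named, with the 3 highest and the lowest gene of each list and the 10 copies with the highest mean count. Gm28439 and Polrmt were named after their values were seen. Prorp and Fastkd4 were not analysed here, and 1 result is not reported here.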

Additional observations from a re-analysis of the deposited data

How the results depend on the processing

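The mitochondrial share of counts, 14.4%, was 26.0% relative to nuclear protein-coding counts, 3.61% by deposited TPM and 18.05% with copies, and 12.5% to 16.3% with either library left out. The mt-Co1 share of mRNA counts, 86.5%, was 80.2% by posterior mean, 55.4% by TPM, 68.0% with copies and, chosen after seeing the data, 48.8% with copies per annotated base (83.7% to 89.3% with a library left out). The rRNA to mRNA ratio, 0.539 (0.234 to 0.843), was 3.67 without mt-Co1. The minus strand share, 0.0790% (0.0367% to 0.121%), was 0.227% by TPM, and the tRNA genes alone gave no value, being at 0. Members at least 2-fold apart numbered 3 with TMM, 5 by library total and 7 by ratio of TPM, while the share over all genes was 10.5%, 11.96% and 30.2%. With copies the ratios of mt-Nd3 (−0.67), mt-Co2 (−0.56), mt-Co3 (−0.30) and mt-Atp6 (−0.76) reversed. Those of mt-Co3 and mt-Atp6 also reversed by ratio of TPM (−0.26 and −0.44) and by posterior mean (−0.18 and −0.84). Adding copies to the ratios was chosen after seeing the data, and so was adding them to the rRNA ratio and the minus strand share. Beside these 8 reversals, 80 ratios of single genes kept their direction and side of 2-fold under an alternative, 8 moved past 2-fold and 2 moved under it. The cause was not tested. Part of the 80 was fixed in advance, since dropping the count minimum cannot change the ratio of any of the 14 members. DESeq2 size factors and TMM without the mitochondrial genes shifted every ratio by only 0.007 and −0.0004.

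No paired analysis was possible because there is only 1 group. With 2 libraries, each SD rests on 2 values. The posterior standard deviations of mt-Co2, mt-Atp6 and mt-Co3 far exceed counting error.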

Other observations

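Of 18 genes for mitochondrial translation and rRNA modification, 15 reached 1 coding-scaled TPM in both libraries, and the list median was 7.73 in replicate 1 and 8.99 in replicate 2. The highest was Mrm1, an enzyme that methylates mt-Rnr2, with 120 and 146 coding-scaled TPM, followed by mean level by Dap3, a protein of the small mitochondrial ribosomal subunit, with 28.7 and 30.02, and Gfm1, an elongation factor, with 21.1 and 18.1. The lowest by mean was Nsun4, another rRNA methyltransferase, with 0.444 and 1.31. The list's median log2 ratio between libraries was 0.00 over the 12 genes that averaged at least 100 counts, and none of them was 2-fold apart, while both rRNAs were higher in replicate 2.

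Of 11 genes for mitochondrial DNA replication and packaging, 10 reached 1 coding-scaled TPM. Polg, the catalytic subunit of the mitochondrial DNA polymerase, had 28.3 and 21.2, Ssbp1, which binds single-stranded mitochondrial DNA, 24.2 and 18.7, Dna2 22.4 and 19.0, and the lowest, Exog, 0.711 and 0.435. All 4 were higher in replicate 1. Among genes of mitophagy and the outer membrane, Bnip3l, the receptor by which maturing red cells clear mitochondria, stood at 1149 and 1312, above mt-Nd2, mt-Nd5 and mt-Nd6 in replicate 2 and above mt-Nd6 alone of the mitochondrial mRNAs with copies in replicate 1. Pink1, a kinase that marks damaged mitochondria, had 97.3 and 117, and Vdac2, a pore of the outer membrane, had 66.2 and 92.1.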
